A study of Mus musculus with 20 samples.

Results

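The integrated stress response was followed through 10 of the 50559 genes counted by RNA-seq in mouse liver. They were chosen by symbol: the transcription factors *Atf4*, *Ddit3* and *Atf3*, the amino acid enzymes *Asns* and *Psat1*, the regulators *Trib3*, *Chac1* and *Sesn2*, and the secreted hormones *Fgf21* and *Gdf15*. All 20 livers were from *Cideb* fl/fl mice, which carry a floxed allele, and 4 groups held 5 livers each. Animals called WT here were injected with AAV-TBG-GFP and those called KO with AAV-TBG-Cre, so controls carried the floxed allele and an AAV as well. TBG is a hepatocyte promoter, so Cre was meant for hepatocytes and the other cells of the liver keep *Cideb*. Each vector was combined with a Western diet (WD) or with CDA-HFD, a high-fat diet that lacks choline and supplies amino acids in place of protein. The study's methods describe CDA-HFD as deficient in methionine as well as choline. The labels give 3 months on either diet and neither age nor sex, whereas the study's text describes a longer course of WD. Library names run on from the WD livers to the CDA-HFD livers, and no label names a batch, so diet, any difference in time on it and any batch between the diets cannot be told apart.

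The integrated stress response begins when kinases that sense misfolded protein, amino acid shortage, viral RNA or heme shortage phosphorylate the translation factor eIF2. General protein synthesis then slows, while the mRNA of *Atf4* is translated more, and ATF4 switches on genes for amino acid supply, redox defense and, with CHOP, cell death. Because ATF4 is controlled in large part by translation, its mRNA is an incomplete readout of the pathway, and its targets are commonly measured beside it. In liver the response is known for raising the hormones FGF21 and GDF15, which act on fat tissue and brain. CIDEB itself is a protein of hepatocyte lipid droplets and of very low density lipoprotein assembly.

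Between 11697049 and 16827147 reads were counted on genes per liver, with a median of 14016976.5. *Cideb*, the targeted gene, was at 4.77 to 7.56 CPM (reads per 1000000 reads on genes, scaled by edgeR's TMM method over all livers) on WD with the control vector and 0 to 0.388 CPM with Cre. CDA-HFD livers held 2.22 to 3.82 CPM in WT and 0 to 0.398 CPM in KO livers, so it separated the vectors on both diets. In the annotation 76.3% of the exon bases of *Cideb* lie under *Nop9* on the other strand. Hepatocyte markers were summed over 8 genes and reached 32221 to 102960 CPM per liver, with no marker at 0 in any group. KO liver 5 on CDA-HFD stood apart: it was the highest liver of its group in 35.5% and the lowest in 34.0% of the 17804 genes tested over all livers. Calls between the vectors on CDA-HFD rose most when it was left out: 15.5% of all genes were called with it and 41.4% without it. Other livers mattered too, as the share fell to 4.02% without KO liver 1, the lowest with a liver left out.

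The promoters of these genes were read from RefSeq (GRCm38.p6), 250 bases before to 50 bases after each start site, and all 10 genes had a window. The letters TGATGNAA, the core of the response element that ATF4 and C/EBP factors bind, were searched on both strands, and no other motif was searched. They were in the windows of 5 of the 10 genes, where 4.51% of all 27025 genes with a window held them (3.97% of the 32851 windows). The match is a description of letters and not a measured binding site. Several of the 10 genes are known ATF4 targets, so a higher share comes with their choice and is not a result of these data. The matches are shown, 5′ to 3′ on the strand of the gene with the motif in capitals, because they lie in 5 genes that did not move together between the diets. In *Asns* the motif reads along the gene, and in the other 4 genes it lies on the opposite strand. The *Trib3* match lies after the RefSeq start, and the *Atf3* window lies inside the gene as GENCODE draws it.
Atf3 (chr1:191183425-191183454, minus strand): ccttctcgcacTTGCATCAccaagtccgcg
Chac1 (chr2:119351038-119351067, plus strand): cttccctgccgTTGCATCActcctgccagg
Trib3 (chr2:152344028-152344057, minus strand): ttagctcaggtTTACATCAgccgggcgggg
Asns (chr6:7693214-7693243, minus strand): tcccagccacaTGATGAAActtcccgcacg
Fgf21 (chr7:45615611-45615640, minus strand): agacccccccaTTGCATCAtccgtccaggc

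Between the diets, WT livers changed in 8 of the 10 genes, the largest count in the comparison that also had the largest share of all genes called. *Asns* enters this count and that of KO livers, though it passed the filter on low counts only through the CDA-HFD livers. *Atf4*, *Ddit3*, *Atf3*, *Asns* and *Psat1* were higher on CDA-HFD, and *Chac1*, *Sesn2* and *Gdf15* were lower (edgeR's quasi-likelihood F test, adjusted p under 0.05 over all genes tested). Over all 16726 genes tested, 25.9% were higher and 25.2% lower, so 51.1% of all genes passed in this comparison. KO livers changed in 4 genes between the diets, with *Atf3*, *Asns* and *Psat1* higher and *Chac1* lower, beside 9.19% of all genes higher and 7.85% lower. Between the vectors on CDA-HFD 1 gene passed, *Atf3*, which was lower in KO livers, where 8.19% of all genes were higher and 7.29% lower. Without KO liver 5 *Atf3* was again the 1 gene, beside 19.6% of all genes higher and 21.8% lower. Between the vectors on WD 0 of the 9 genes tested passed, beside 0.0757% of all genes called in either direction. In that comparison 3 genes had an unadjusted p under 0.05 in edgeR, and DESeq2 called 0. These comparisons share groups of livers, so each is given with its own values.

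**Figure D1:**
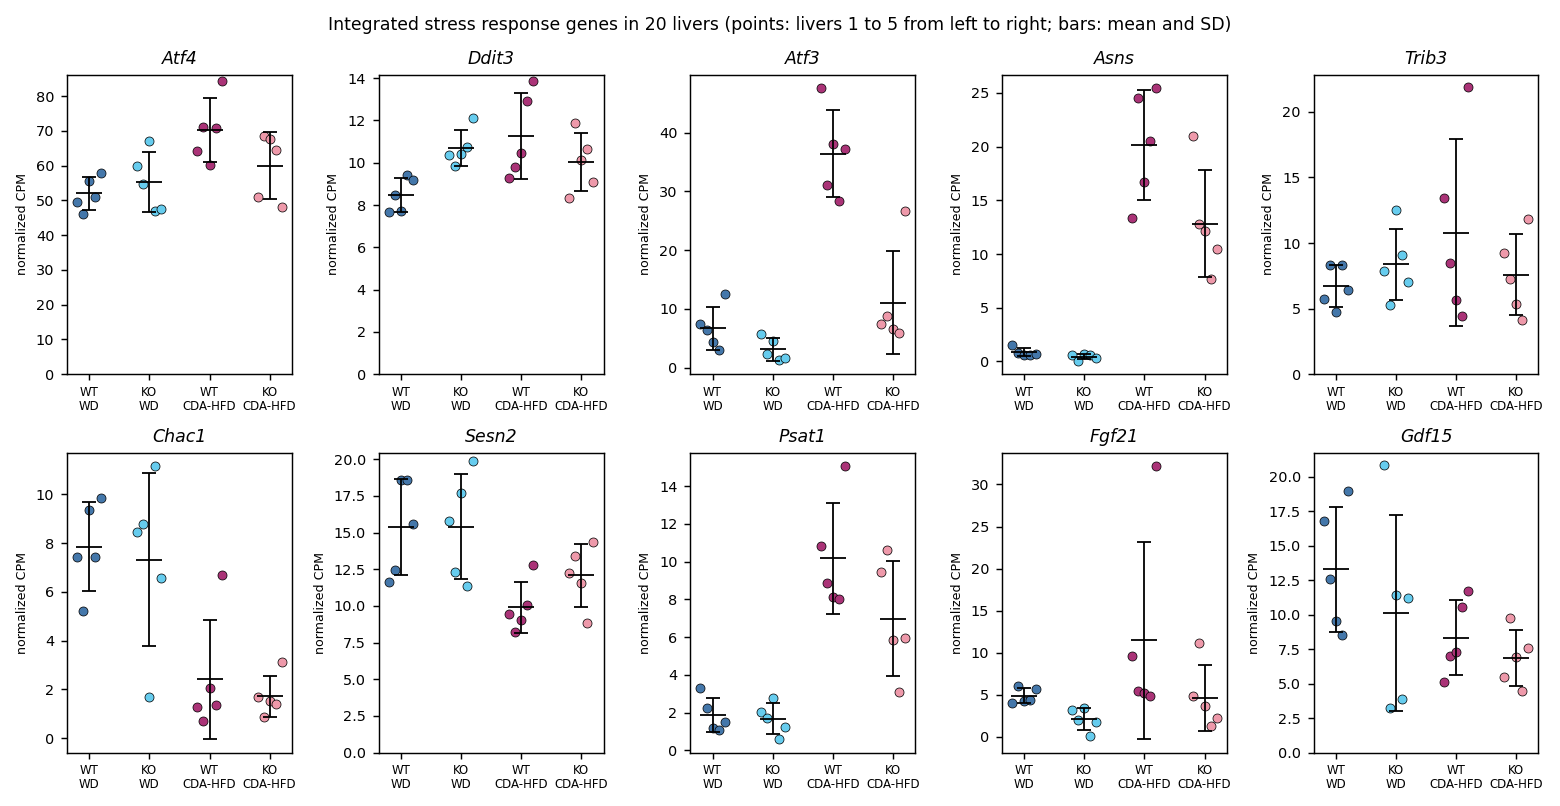
Normalized CPM (vertical axis, linear) of the 10 integrated stress response genes in WT and KO livers on WD and CDA-HFD; points are the 5 livers of a group and bars give the mean ± SD. *Asns* lies between 0.0777 and 1.49 CPM on WD and between 7.71 and 25.4 CPM on CDA-HFD, and WT liver 5 on CDA-HFD is the highest point of its group in 9 of the 10 panels.

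*Atf4* (ENSMUSG00000042406.8, chr15:80255184-80257541, GRCm38, plus strand) encodes the factor that carries the response into the nucleus. On WD its level was 49.6, 46.0, 55.6, 50.9 and 57.8 CPM in WT livers 1 to 5, and 59.96, 54.6, 67.2, 47.0 and 47.4 CPM in KO livers. On CDA-HFD it was 64.3, 71.1, 60.1, 70.8 and 84.3 CPM in WT livers, and 51.1, 68.6, 67.6, 64.4 and 48.2 CPM in KO livers. WT livers on CDA-HFD lay above every WT liver on WD, and KO livers overlapped WT livers on both diets. The rise between diets in WT livers was 0.42 ± 0.10 (log2 fold change ± SE, adjusted p = 0.00392 from edgeR), a modest 1.35-fold in means. KO livers showed 0.11 ± 0.13 (adjusted p = 0.593 from edgeR) between the same diets. KO against WT differed by 0.09 ± 0.11 on WD and by -0.23 ± 0.13 on CDA-HFD, with adjusted p of 0.814 and 0.217 from edgeR. Scaled by library size alone, the CDA-HFD difference passed (-0.44, adjusted p = 0.0422 from edgeR).

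*Ddit3* (ENSMUSG00000025408.15, chr10:127290774-127296288, plus strand) encodes CHOP, the factor linked to cell death under prolonged stress. Its level on WD was 7.67, 8.498, 7.71, 9.41 and 9.18 CPM in WT livers and 10.4, 9.86, 10.4, 10.8 and 12.1 CPM in KO livers. On CDA-HFD it was 9.26, 9.78, 10.5, 12.9 and 13.9 CPM in WT livers and 8.35, 11.9, 10.2, 10.6 and 9.11 CPM in KO livers. Every KO liver on WD was above every WT liver on WD, whereas the vectors overlapped on CDA-HFD. The KO difference on WD was 0.34 ± 0.11 with an unadjusted p of 0.00839 and an adjusted p of 0.316 from edgeR, so it did not pass over all genes. The exact two-sided permutation test of 5 livers against 5 gave p = 0.00794, the smallest it can give over 252 splits, which 10 of the 40 such tests of the 10 genes gave. Beside it, 2 of the 10 genes, *Ddit3* and *Fgf21*, had no overlap between the vectors on WD, where 2.22% of all genes had none. On CDA-HFD the KO difference was -0.17 ± 0.15, and the change of the KO effect from WD to CDA-HFD was -0.50 ± 0.18 with an adjusted p of 0.192 from edgeR.

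Between diets *Ddit3* was higher on CDA-HFD in WT livers by 0.40 ± 0.14 (adjusted p = 0.0273 from edgeR) and stood at -0.10 ± 0.12 in KO livers. The call in WT livers was lost without WT liver 1 (adjusted p = 0.0620), 2 (0.0505) or 3 (0.0656) on WD, and without WT liver 4 (0.0550) or 5 (0.0615) on CDA-HFD, all from edgeR.

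*Atf3* (ENSMUSG00000026628.13, chr1:191170296-191218039, minus strand) encodes an early stress factor that is induced below ATF4 and also by inflammatory signals. In WT livers it was at 7.43, 6.35, 4.38, 2.97 and 12.5 CPM on WD and at 47.6, 31.2, 38.0, 28.4 and 37.2 CPM on CDA-HFD. In KO livers it was at 5.79, 2.33, 4.56, 1.29 and 1.72 CPM on WD and at 7.44, 8.73, 6.64, 5.87 and 26.7 CPM on CDA-HFD. All 5 WT livers on CDA-HFD were above all KO livers on that diet, and KO liver 5 came closest to them. The KO difference on CDA-HFD was -1.72 ± 0.39 (adjusted p = 0.0194 from edgeR), with a KO mean of 11.1 ± 8.78 CPM (SD, n = 5) against 36.5 ± 7.42 CPM in WT livers. Without KO liver 5 it was -2.34 (adjusted p = 4.989e-05 from edgeR). The call was lost, at a nearly equal fold change, without WT liver 3 (adjusted p = 0.0502) or without KO liver 1 (0.0562), 2 (0.0525) or 3 (0.0549), all from edgeR. Those fits called 789, 709, 986 and 736 of all genes, where 2664 were called with all livers. *Atf3* was the 1 gene of the 10 with no overlap between the vectors on CDA-HFD, where 9.58% of all genes had none. On WD the KO difference was -1.13 ± 0.44 (adjusted p = 0.405 from edgeR), and the change of the KO effect between diets was -0.57 ± 0.63 (adjusted p = 0.691 from edgeR).

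Marker sums of other liver cells moved with *Atf3* on CDA-HFD, though not every marker did. Summed over 10 macrophage markers, WT livers held 1755 to 3641 CPM, KO livers 1 to 4 held 625 to 829 CPM, and KO liver 5 held 2053 CPM. *Lyz2* and *Gpnmb* were large parts of this sum, with means of 844 and 762 CPM in WT and 284 and 181 CPM in KO livers. *Clec4f* (91.4 and 116 CPM) and *Marco* (8.92 and 20.7 CPM) had higher means in KO than in WT livers. Of the 10 macrophage markers 8 had a negative KO value and 2 a positive one. Past the threshold, 4 of them were lower and 0 higher in KO livers, as were 2 of 8 stellate cell and 5 of 5 neutrophil markers tested, while 3 of 8 hepatocyte markers were higher. Without KO liver 5 the lower markers were 6 of 10 for macrophages, where 2 were higher, 7 of 8 for stellate cells, 6 of 6 for cholangiocytes, which had 0 with it, and 5 of 5 for neutrophils. The higher ones were then 6 of 8 for hepatocytes and 5 of 7 for endothelial cells. Over all genes 8.19% were higher and 7.29% lower with KO liver 5, and 19.6% and 21.8% without it, so calls rose in general. The stellate cell sum was 1635 to 3029 CPM in WT livers, 615 to 871 CPM in KO livers 1 to 4, and 3055 CPM in KO liver 5. Cholangiocyte sums were 362 to 783 CPM in WT livers, 68.4 to 171 CPM in KO livers 1 to 4 and 648 CPM in KO liver 5, and endothelial sums 481 to 581, 691 to 800 and 426 CPM. No marker of these lists was at 0 in any group. KO liver 5 thus carried both the highest *Atf3* and the highest macrophage, stellate cell, cholangiocyte and neutrophil sums of its group, and the part of these cells in the result was not tested. In bulk RNA, fewer cells of a type and less RNA per cell cannot be told apart.

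Between diets *Atf3* was higher on CDA-HFD by 2.41 ± 0.30 in WT livers (adjusted p = 7.807e-05 from edgeR), 5.41-fold in means. In KO livers it was higher by 1.84 ± 0.52 (adjusted p = 0.0336 from edgeR), with no overlap between the diets. The KO call between diets was lost without KO liver 2 (adjusted p = 0.0775), 4 (0.0740) or 5 (0.0761) on WD and without KO liver 2 on CDA-HFD (0.0506), and without KO liver 5 on CDA-HFD the value was 1.21 (0.0411), all from edgeR. The fits that lost it called 1568, 1769, 1775 and 1868 of all genes, where 2792 were called with all livers. Macrophage sums on WD were 407 to 1294 CPM in WT and 335 to 644 CPM in KO livers, so this sum also moved with the diet.

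*Asns* (ENSMUSG00000029752.12, chr6:7675169-7693254, minus strand) encodes asparagine synthetase, a classic ATF4 target. On WD it rested on 1 to 19 reads per liver, at 1.49, 0.773, 0.604, 0.594 and 0.729 CPM in WT livers and 0.643, 0.0777, 0.651, 0.607 and 0.313 CPM in KO livers. CDA-HFD livers held 13.4, 24.6, 16.7, 20.5 and 25.4 CPM in WT livers and 21.0, 12.8, 12.1, 7.71 and 10.5 CPM in KO livers. No liver on CDA-HFD came near a liver on WD with either vector. The difference between diets was 4.56 ± 0.27 in WT livers (adjusted p = 1.747e-06 from edgeR) and 4.80 ± 0.40 in KO livers (adjusted p = 7.215e-05 from edgeR), or 24.0-fold and 28.0-fold in means. It was the largest difference between diets of the 10 genes, and *Asns* passed the filter on low counts only through the CDA-HFD livers. On WD alone it did not pass that filter and KO was not tested against WT. On CDA-HFD the KO difference was -0.65 ± 0.26 (unadjusted p = 0.0290, adjusted p = 0.103 from edgeR), with the highest KO liver inside the WT range.

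*Psat1* (ENSMUSG00000024640.9, chr19:15904678-15947337, minus strand) encodes phosphoserine aminotransferase of serine synthesis. It was at 3.29, 2.23, 1.21, 1.09 and 1.53 CPM in WT livers and 2.02, 1.71, 2.79, 0.607 and 1.25 CPM in KO livers on WD. The CDA-HFD levels were 10.8, 8.87, 8.11, 8.04 and 15.1 CPM in WT livers and 9.46, 10.6, 5.84, 3.08 and 5.93 CPM in KO livers. As with *Asns*, the diets separated every liver of a vector, by 2.43 ± 0.29 in WT livers (adjusted p = 6.829e-05 from edgeR) and 2.07 ± 0.40 in KO livers (adjusted p = 0.00701 from edgeR). The KO difference was -0.18 ± 0.39 on WD and -0.55 ± 0.31 on CDA-HFD, with adjusted p of 0.905 and 0.222 from edgeR. In WT livers *Atf4*, *Atf3*, *Asns* and *Psat1* were the 4 genes with no overlap between the diets, where 37.1% of all genes had none. In KO livers *Atf3*, *Asns* and *Psat1* were the 3 such genes, where 15.2% of all genes had none.

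*Trib3* (ENSMUSG00000032715.9, chr2:152337422-152344032, minus strand) encodes a pseudokinase that is induced by ATF4 and CHOP and restrains the response. On WD it was at 5.71, 8.33, 4.76, 8.32 and 6.41 CPM in WT livers and 7.90, 5.28, 12.6, 9.10 and 7.04 CPM in KO livers. With CDA-HFD the levels were 13.4, 8.45, 5.68, 4.42 and 21.9 CPM in WT livers and 9.25, 7.28, 5.38, 4.11 and 11.9 CPM in KO livers. All 4 groups overlapped, and the spread was widest in WT livers on CDA-HFD, with WT liver 5 at the top. Between diets the values were 0.69 ± 0.39 in WT and -0.14 ± 0.30 in KO livers, with adjusted p of 0.155 and 0.787 from edgeR. Without WT liver 4 on CDA-HFD the first was 0.90 (adjusted p = 0.0490 from edgeR), and without WT liver 5 it was 0.26. KO against WT stood at 0.32 ± 0.23 on WD and -0.52 ± 0.43 on CDA-HFD, neither past the threshold.

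*Chac1* (ENSMUSG00000027313.3, chr2:119351229-119354381, plus strand) encodes an enzyme that degrades glutathione and is a target of ATF4. It was at 7.43, 5.24, 9.37, 7.43 and 9.84 CPM in WT livers and 8.45, 8.78, 1.67, 11.1 and 6.57 CPM in KO livers on WD. Livers on CDA-HFD had 1.27, 0.704, 2.04, 1.34 and 6.69 CPM in WT livers and 1.67, 0.886, 1.53, 1.39 and 3.11 CPM in KO livers. It fell on CDA-HFD where *Asns* and *Psat1* rose, with -1.66 ± 0.48 in WT livers (adjusted p = 0.0124 from edgeR) and -2.08 ± 0.45 in KO livers (adjusted p = 0.0118 from edgeR). WT liver 5 lay inside the range of the WD livers, and without it the difference in WT livers was -2.52 (adjusted p = 0.000127 from edgeR). KO against WT was -0.09 ± 0.36 on WD and -0.52 ± 0.56 on CDA-HFD, and the latter turned to 0.35 without WT liver 5.

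*Sesn2* (ENSMUSG00000028893.8, chr4:132492032-132510501, minus strand) encodes a leucine sensor that restrains mTORC1 and is also a target of p53. On WD it was at 11.7, 12.4, 18.6, 18.6 and 15.6 CPM in WT livers and 15.8, 12.3, 17.7, 11.4 and 19.9 CPM in KO livers. CDA-HFD livers held 9.45, 8.23, 9.04, 10.1 and 12.8 CPM in WT livers and 12.2, 13.4, 11.5, 8.81 and 14.4 CPM in KO livers. WT livers fell by 0.64 on the log2 scale on CDA-HFD (SE 0.16, adjusted p = 0.00654 from edgeR), with WT liver 5 alone above the lowest WD liver. That call was lost when scaled by library size alone, where the value was -0.19. KO livers stood at -0.35 ± 0.18 between diets (adjusted p = 0.197 from edgeR). *Sesn2* was the 1 gene of the 10 with a positive KO difference on CDA-HFD, 0.28 ± 0.16 (adjusted p = 0.223 from edgeR), and on WD the value was 0.00 ± 0.18.

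*Fgf21* (ENSMUSG00000030827.5, chr7:45613886-45615490, minus strand) encodes a hormone of fasting and nutrient stress that liver secretes. It was at 4.07, 6.01, 4.23, 4.36 and 5.68 CPM in WT livers and 3.21, 1.94, 3.44, 0.0758 and 1.80 CPM in KO livers on WD. The CDA-HFD levels were 9.58, 5.49, 5.18, 4.89 and 32.1 CPM in WT livers and 4.87, 11.1, 3.65, 1.25 and 2.22 CPM in KO livers. On WD every KO liver was below every WT liver, with 2.09 ± 1.35 CPM in KO and 4.87 ± 0.904 CPM in WT livers (SD, n = 5). The KO difference on WD was -1.24 ± 0.47, with an unadjusted p of 0.0214 and an adjusted p of 0.388 from edgeR, and the exact two-sided permutation test gave its smallest p, 0.00794. The adjusted p lay between 0.260 and 0.644 over the 16 alternatives, all from edgeR or DESeq2, so the difference did not pass over all genes under any of them. On CDA-HFD the KO difference was -1.31 ± 0.66 (adjusted p = 0.179 from edgeR) with overlapping groups. Without WT liver 5 it was -0.44 (adjusted p = 0.599 from edgeR), and without livers 5 of both vectors -0.26.

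Between diets *Fgf21* stood at 1.24 ± 0.51 in WT livers (adjusted p = 0.060 from edgeR) and 1.16 ± 0.67 in KO livers (adjusted p = 0.253 from edgeR). WT liver 5 was 5.11 times the mean of the other 4 WT livers on CDA-HFD, and without it the value in WT livers was 0.37 (adjusted p = 0.206 from edgeR). Without WT liver 2, 3 or 4 on CDA-HFD the call passed, with adjusted p of 0.0394, 0.0383 and 0.0322 from edgeR, as it did with DESeq2 (0.0247), without a filter on low counts (0.0354) and scaled by library size alone (0.0156). The change of the KO effect between diets was -0.07 ± 0.91, a value whose error allows either direction.

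*Gdf15* (ENSMUSG00000038508.7, chr8:70629393-70632456, minus strand) encodes a hormone that signals sickness and reduces food intake. On WD it was at 16.8, 12.6, 9.52, 8.52 and 18.9 CPM in WT livers and 20.8, 3.26, 11.4, 3.87 and 11.2 CPM in KO livers. With CDA-HFD the levels were 5.14, 6.97, 7.28, 10.5 and 11.7 CPM in WT livers and 5.50, 9.74, 6.90, 4.48 and 7.55 CPM in KO livers. Its mean was highest in WT livers on WD, at 13.3 ± 4.52 CPM, and lowest in KO livers on CDA-HFD, at 6.83 ± 2.02 CPM (SD, n = 5), and each group overlapped the next in that order. In WT livers it was lower on CDA-HFD at -0.68 ± 0.27, with an adjusted p of 0.0498 from edgeR, just past the threshold. The call was lost without WT liver 1 (adjusted p = 0.10), 2 (0.0685) or 5 (0.130) on WD, and without WT liver 1 (0.105), 2 (0.0948) or 3 (0.106) on CDA-HFD, all from edgeR. It was also lost with all 20 livers in one fit (0.156), with at least 10 counts in every library (0.0654) and scaled by library size alone (0.397). KO livers stood at -0.56 ± 0.44 between diets, and KO against WT at -0.41 ± 0.43 on WD and -0.29 ± 0.26 on CDA-HFD, none past the threshold. *Fgf21* and *Gdf15*, which are often measured together, had values of opposite sign between the diets, 1.24 and -0.68 in WT and 1.16 and -0.56 in KO livers, a contrast that was not tested. The KO value of *Fgf21* was 0.53 without KO liver 2 on CDA-HFD.

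**Figure D2:**
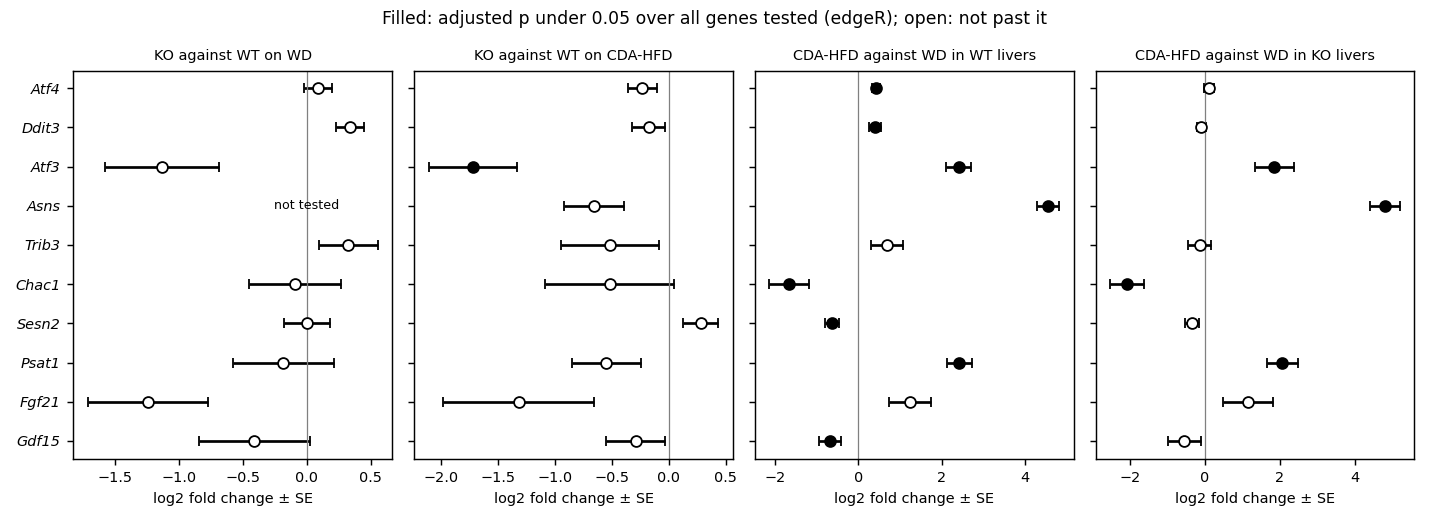
Log2 fold change ± SE (horizontal axis) of the 10 genes in 4 comparisons, from edgeR; filled points passed an adjusted p of 0.05 over all genes tested. KO against WT has 1 filled point, *Atf3* on CDA-HFD at -1.72, whereas the diet comparisons have 8 in WT and 4 in KO livers, with *Asns* farthest to the right and *Chac1* farthest to the left in both.

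No gene of the 10 passed the test of the change of the KO effect between diets, with adjusted p between 0.192 and 0.978 from edgeR, beside 0.556% of all genes. Without KO liver 5 on CDA-HFD again 0 of the 10 passed, beside 11.9% of all genes. DESeq2 also called 0, and 1 gene had an unadjusted p under 0.05 in edgeR, *Ddit3*. The larger number of calls between diets in WT than in KO livers is therefore a difference in counts and was not shown for any single gene. Across the 10 genes the median log2 fold change was -0.09 for KO on WD (9 genes), -0.52 for KO on CDA-HFD, 0.56 between diets in WT livers and 0.01 between diets in KO livers. Over all genes tested the medians were 0.01, 0.00, 0.00 and 0.00 in the same order. On CDA-HFD 9 of the 10 genes had a negative KO difference, and without WT liver 5 the median of the 10 was -0.15. The median between diets in WT livers was 0.34 without that liver.

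Levels were also compared per kilobase of exon. *Atf4* was the highest of the 10 genes in all groups, with group means from 22.0 to 29.7 CPM per kilobase. On WD *Gdf15* came next in WT livers at 7.17 ± 2.44 CPM per kilobase (SD, n = 5) and *Ddit3* in KO livers at 6.25 ± 0.497 CPM per kilobase. On CDA-HFD *Atf3* came next in WT livers at 16.9 ± 3.44 CPM per kilobase, ahead of *Fgf21* at 12.05 ± 12.3 CPM per kilobase, whose SD exceeded its mean. *Asns* moved from the lowest level in both groups on WD, 0.306 CPM per kilobase in WT and 0.168 CPM per kilobase in KO livers, to 7.36 and 4.69 CPM per kilobase on CDA-HFD.

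Single livers often carried the spread of several genes at once. WT liver 5 on CDA-HFD was the highest of its group in 9 of the 10 genes, all but *Atf3*, and it was the highest in 17.7% of all genes. Relative to the mean of the other 4 livers it was at 5.11 times for *Fgf21*, 5.002 times for *Chac1* and 2.74 times for *Trib3*, against 1.27 times for *Atf4* and 1.31 times for *Ddit3*. KO liver 4 on CDA-HFD was the lowest of its group in 7 genes, *Atf3*, *Asns*, *Trib3*, *Sesn2*, *Psat1*, *Fgf21* and *Gdf15*, and in 22.4% of all genes. KO liver 4 on WD was the lowest in 5 genes, *Atf4*, *Atf3*, *Sesn2*, *Psat1* and *Fgf21*, and in 25.6% of all genes. WT liver 5 had 16827147 reads on genes, the most of any liver, and its macrophage sum of 2002 CPM was the median of its group. Its stellate cell sum of 3029 CPM and cholangiocyte sum of 783 CPM were the highest of the group, and its endothelial sum of 481 CPM and lymphocyte sum of 13.2 CPM the lowest. The part of these cells in its levels was not tested.

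**Figure D3:**
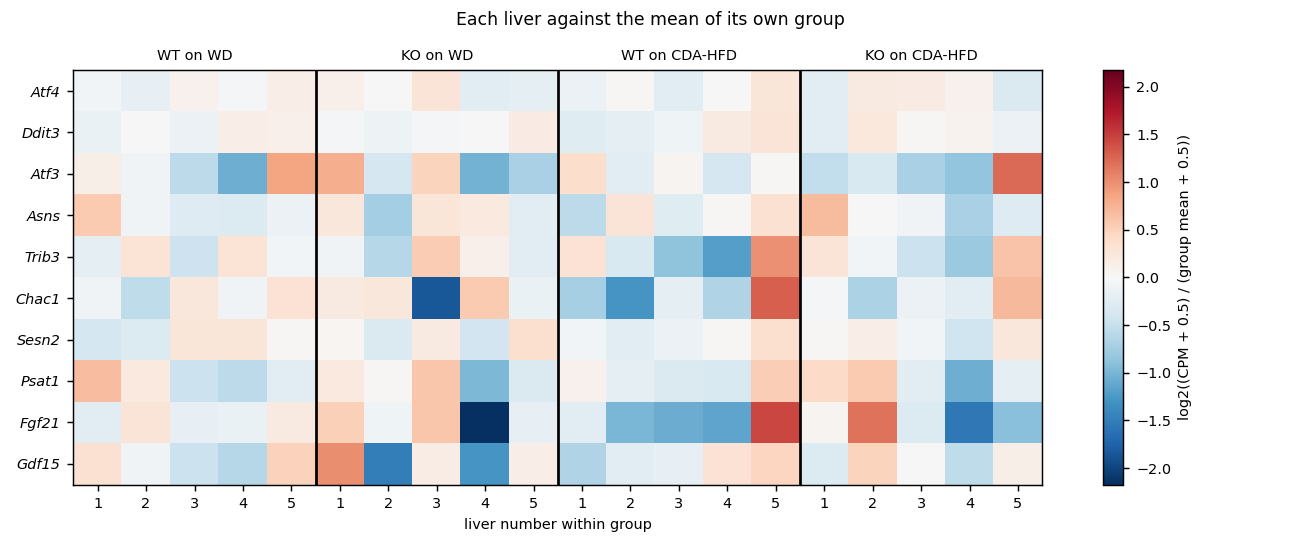
Each of the 20 livers (columns, 5 per group) against the mean of its own group, as log2 of the ratio of CPM + 0.5 (color) for the 10 genes (rows). The column of WT liver 5 on CDA-HFD is above its group mean in all 10 rows, most for *Fgf21*, *Chac1* and *Trib3*, and in KO liver 5 on CDA-HFD *Atf3* is the row farthest above the mean.

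The genes whose pattern over the 20 livers was most like *Fgf21* were *Cgref1*, *Chaf1a* and *Srxn1*. Their root mean square difference from it in standardized log2 CPM was 0.462, 0.552 and 0.560, where the median over 15779 genes was 1.43. Of the other 9 genes of the response, *Psat1* came nearest to *Fgf21* at 0.810, *Atf3* at 0.835 and *Atf4* at 0.932. For *Gdf15* the nearest genes were *Tubb2a*, *Gm33699* and *Cdh4*, at 0.664, 0.693 and 0.699, with a median of 1.42 over all genes. *Sesn2* at 1.04 and *Fgf21* at 1.07 were the genes of the response nearest to *Gdf15*. These values describe likeness over livers that share a diet and a place in the library order, and carry no test.

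Wider lists of the pathway were counted from the same fits, with 88 genes in 10 lists. Between diets in WT livers 21 were higher and 24 lower of 84 tested, or 53.6% beside 51.1% of all genes. In KO livers 9 were higher and 10 lower of 82 tested, or 23.2% beside 17%. KO against WT on CDA-HFD had 8 higher and 9 lower of 84 tested, or 20.2% beside 15.5%. Without KO liver 5 that became 21 higher and 20 lower, or 48.8% beside 41.4%, and without WT liver 5 it was 2 higher and 0 lower, or 2.38% beside 5.27%. Between the vectors on WD 0 of 80 passed in edgeR, where 11 had an unadjusted p under 0.05, and 1 passed in DESeq2, the ER gene *Creld2*. The change of the KO effect between diets gave 0 of 84 in edgeR, where 15 had an unadjusted p under 0.05, and 2 passed in DESeq2, *Slc3a2*, a transporter subunit, and *Aars*. These 3 genes are named outside the rule, with their values known. The edgeR calls ran in both directions in each comparison that had any, and the shares carry no test.

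Between diets in WT livers, amino acid transporters and synthesis genes had more calls upward than downward, and the aminoacyl-tRNA synthetases more downward. Of the amino acid transporters 5 were higher and 1 lower of 8 tested in WT livers, with *Slc7a11*, the cystine and glutamate exchanger, at 3.44 ± 0.39, *Slc7a1*, a carrier of arginine and lysine, at 1.56 ± 0.26 and *Slc1a5*, a glutamine carrier, at 1.46 ± 0.17. In KO livers 3 were higher, *Slc7a11* at 3.66 ± 0.67, *Slc1a5* at 1.18 ± 0.27 and *Slc7a1* at 0.91 ± 0.26. *Slc7a11* rested on 1 to 8 reads per KO liver and 6 to 40 per WT liver on WD, and like *Asns* it passed the filter on low counts only through the CDA-HFD livers. Of serine, one-carbon and amino acid synthesis 5 were higher and 2 lower of 10 tested in WT livers, led by *Aldh1l2*, a mitochondrial folate enzyme, at 2.63 ± 0.60, with the proline synthesis enzymes *Aldh18a1* at 1.31 ± 0.31 and *Pycr1* at 1.26 ± 0.32. *Aldh1l2* had 6 to 9 reads per WT liver on WD and also passed that filter only through CDA-HFD livers, and *Pycr1* had 7 to 15. In KO livers 1 of 9 was higher, the mitochondrial folate enzyme *Mthfd2*, at 1.26 ± 0.35. The aminoacyl-tRNA synthetases, which load amino acids onto tRNA and hold many ATF4 targets, had 1 higher and 3 lower of 10 in WT livers, and 0 higher and 3 lower in KO livers. All genes stood at 25.9% higher and 25.2% lower in WT and at 9.19% and 7.85% in KO livers. *Tars* stood at -0.87 ± 0.13 and -0.63 ± 0.15, and *Mars1* at -0.55 ± 0.08 and -0.48 ± 0.12, in WT and KO livers, while *Cars* was lower in KO livers at -0.47 ± 0.12. *Mars1*, in both vectors, and *Cars* did not pass when scaled by library size alone, at -0.13, -0.24 and -0.23. *Aars* was lower in WT livers at -0.32 ± 0.10, but stood at 0.10 when scaled by library size alone.

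Among the partner factors of ATF4, 2 were higher and 1 lower of 6 in WT livers between diets, with *Nupr1* at 2.70 ± 0.58, *Cebpd* at 1.03 ± 0.23 and *Cebpb* at -0.79 ± 0.16. Beside these and the next counts, 25.9% of all genes were higher and 25.2% lower in WT livers, and 9.19% and 7.85% in KO livers. *Cebpb* was the 1 factor to pass in KO livers, at -0.66 ± 0.16. Of the other ATF4 and CHOP targets, 2 were higher and 3 lower of 10 in WT livers. *Stc2*, a secreted glycoprotein, stood at 2.61 ± 0.43, the lipoprotein receptor *Vldlr* at -1.72 ± 0.18 and the growth factor *Vegfa* at -0.68 ± 0.15. *Stc2* had 2 to 8 reads per WT liver on WD, passed the filter only through CDA-HFD livers and was not tested in KO livers, and *Nupr1* had 3 to 21 reads per WT liver on WD. In KO livers *Vldlr* stood at -2.56 ± 0.37, and the death receptor *Tnfrsf10b* was higher at 1.05 ± 0.32, as 1 higher and 1 lower of 9. The *Tnfrsf10b* call remained in 2 of 10 fits with a liver left out. The eIF2 list had 1 higher and 4 lower of 12 in WT livers, with *Eif2ak2*, the kinase that senses double-stranded RNA, at 0.44 ± 0.10, and in KO livers *Eif2ak2* alone passed, at 0.99 ± 0.16. *Ppp1r15b*, which returns eIF2 to its unphosphorylated state, stood at -0.41 ± 0.09 in WT livers and *Eif2b1*, a subunit of the eIF2 exchange factor, at -0.34 ± 0.13, but they stood at 0.01 and 0.08 when scaled by library size alone.

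In WT livers ER chaperones had few calls between diets, while 4 of 6 mitochondrial chaperones and proteases were lower. Over all genes 25.9% were higher and 25.2% lower in WT livers, and 9.19% and 7.85% in KO livers. Of 12 ER chaperones and related genes 1 was higher and 2 lower in WT livers, *Sdf2l1* at 0.41 ± 0.14, *Herpud1* at -0.95 ± 0.26 and *Pdia4* at -0.21 ± 0.08, the last being called higher, at 0.21, when scaled by library size alone (adjusted p = 0.0145 from edgeR), where *Herpud1* was at -0.51 and did not pass. In KO livers *Herpud1* at -0.90 ± 0.23 and *Creld2* at -0.78 ± 0.24 were lower, and the *Creld2* call remained in 3 of 10 fits with a liver left out. The mitochondrial genes named were *Hspd1* at -0.54 ± 0.11, *Clpp* at -0.42 ± 0.11 and *Hspe1* at -0.36 ± 0.10. None of the 3 passed when scaled by library size alone, at -0.12, -0.0012 and 0.07. In KO livers 0 passed, where 1 of 6 had an unadjusted p under 0.05 in edgeR.

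Of the FGF21 and GDF15 receptor genes 3 were higher and 1 lower of 5 tested in WT livers between diets, and 2 and 1 in KO livers. Beside these counts and those of markers below, 25.9% of all genes were higher and 25.2% lower in WT livers, and 9.19% and 7.85% in KO livers. The GDF15 receptor genes *Gfral* and *Ret* had at most 4 reads in any liver and were not tested. *Klb*, the co-receptor that FGF21 needs, was lower on CDA-HFD at -1.14 ± 0.25 in WT and -0.62 ± 0.19 in KO livers. The KO call of *Klb* (adjusted p = 0.0489 from edgeR) remained in 3 of 10 fits with a liver left out. *Fgfr1*, its main signaling partner, was higher at 2.03 ± 0.16 and 1.49 ± 0.18, and *Fgfr2* at 1.37 ± 0.15 and 0.88 ± 0.15. Of other regulators of *Fgf21* and *Gdf15*, *Ppara*, the fasting factor of the liver, was lower at -1.48 ± 0.18 and -0.81 ± 0.19, and *Mlxipl*, the carbohydrate-sensing factor ChREBP, at -1.67 ± 0.17 and -1.01 ± 0.16, each in WT and KO livers. *Trp53*, which can raise *Gdf15*, was higher in WT livers at 0.46 ± 0.11, and the immediate early gene *Egr1* was higher in KO livers at 1.13 ± 0.30. The hepatocyte marker sum moved with these changes in WT livers, from 58994 to 100850 CPM on WD to 32221 to 69024 CPM on CDA-HFD. In the same comparison 6 of 8 hepatocyte and 5 of 7 endothelial markers were lower, and 6 of 6 cholangiocyte, 7 of 8 stellate cell, 5 of 8 lymphocyte, 3 of 5 neutrophil and 5 of 10 macrophage markers higher, with 1 macrophage marker lower. In KO livers 3 of 6 cholangiocyte, 1 of 8 stellate cell, 5 of 7 lymphocyte, 1 of 3 neutrophil and 4 of 10 macrophage markers were higher and 0 of 8 hepatocyte markers passed. The part of these cells in the changes was not tested.

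Between the vectors on CDA-HFD, amino acid genes passed in both directions. *Slc7a11* was lower in KO livers at -1.97 ± 0.45, *Slc7a1* at -0.94 ± 0.25 and *Aldh18a1* at -1.27 ± 0.32, while *Slc6a9*, a glycine transporter, was higher at 0.86 ± 0.10, *Cth*, which makes cysteine, at 0.77 ± 0.23, *Shmt2*, a mitochondrial serine and glycine enzyme, at 0.73 ± 0.19 and *Aars* at 0.67 ± 0.17. *Mlxipl* was higher at 1.08 ± 0.20 and *Fgfr4*, the main FGF receptor of hepatocytes, at 0.56 ± 0.17, while *Fgfr2* was lower at -0.59 ± 0.17. Lower too were *Tnfrsf10b* at -1.03 ± 0.25, the ER chaperone *Dnajb9* at -0.55 ± 0.14, the ER stress kinase *Eif2ak3* at -0.44 ± 0.12 and *Trp53* at -0.32 ± 0.09, and higher were *Ppp1r15b* at 0.43 ± 0.13 and the autophagy gene *Map1lc3b* at 0.33 ± 0.08. The WT livers on CDA-HFD enter both this comparison and the one between diets, so their signs are not independent. These 16 calls depended on single livers: 5 remained without WT liver 1, 2 without WT liver 3 or 5, 3 without KO liver 1, 2 without KO liver 2 or 3 and 8 without KO liver 4, whereas all 16 remained without KO liver 5. Calls over all genes moved likewise, from 2664 with all livers to 1352, 789 and 913 without WT liver 1, 3 or 5. They were 709, 986, 736 and 1581 without KO liver 1, 2, 3 or 4, and 7201 without KO liver 5. Of the 30 genes named between diets in WT livers 27 to 30 remained with a liver left out and 21 when scaled by library size alone, and of the 19 in KO livers 13 to 18 and 14. With a liver left out, 44.8% to 50.9% of all genes were called between diets in WT and 9.37% to 17.4% in KO livers. Without WT liver 5, *Slc6a9* and *Mlxipl* were the calls that remained, beside 438 higher and 475 lower of all 17320 genes tested.

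**Figure D4:**
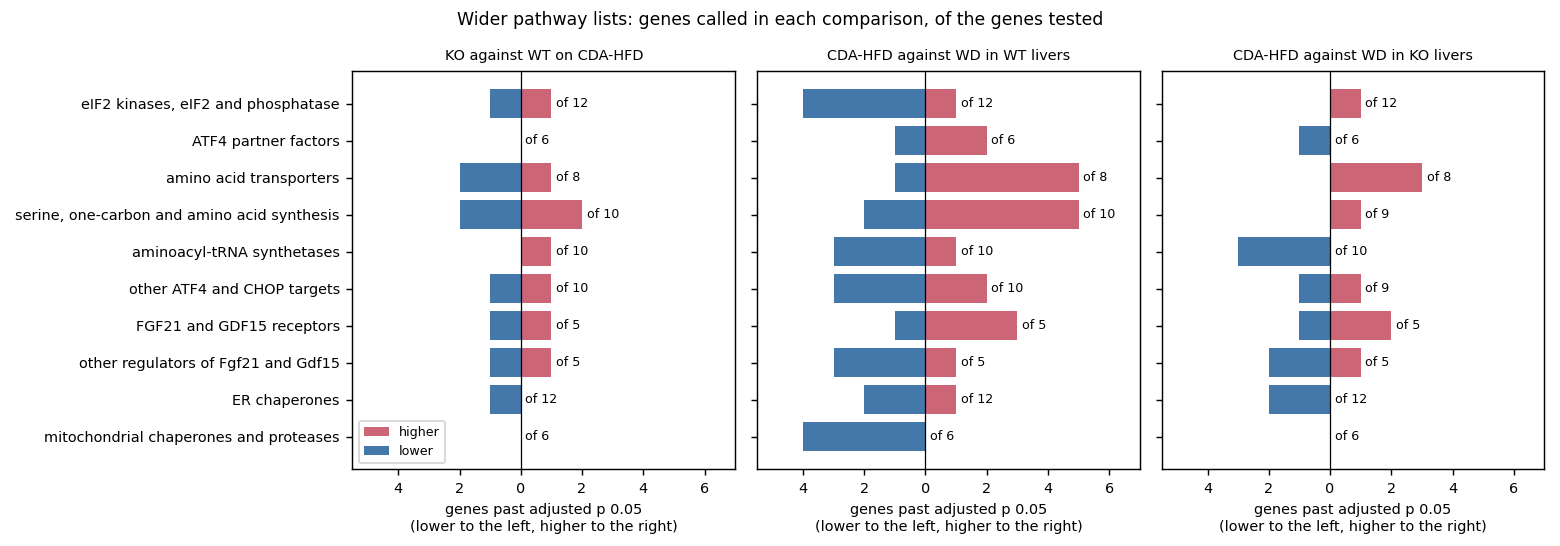
Number of genes past an adjusted p of 0.05 (horizontal axis, higher to the right and lower to the left) in 10 wider lists of the pathway (rows), with the number tested beside each bar, for the 3 comparisons with calls. In WT livers between diets the amino acid transporters (5 higher, 1 lower) and the synthesis list (5 higher, 2 lower) lean to the right. The aminoacyl-tRNA synthetases (1 higher, 3 lower) and the mitochondrial chaperones and proteases (4 lower) lean to the left. Among the higher genes, *Slc7a11* and *Aldh1l2* passed the filter on low counts only through CDA-HFD livers. Over all genes 25.9% were higher and 25.2% lower in that comparison.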

How the data were processed

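Liver RNA was sequenced, and the authors deposited raw counts per gene symbol as whole numbers without normalization. The submitters' processing notes name the build mm10, while the aligner and the counting program are not given in the sources used here. The labels name a directional NEBNext kit and the study's methods a Nugen kit, so the use of strand is unknown. Reads overlapping no counted feature (20.7% to 28.8% per liver) and reads aligned to more than 1 place (18.0% to 28.7%) were tallied apart and left out of every fit.

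Tests used edgeR 4.0.16, with limma 3.58.1, in R 4.3.3 (filterByExpr, TMM scaling, quasi-likelihood F test, Benjamini-Hochberg adjusted p under 0.05 over all genes tested), per comparison on its 10 livers, and on 20 livers for the change of the KO effect between diets. SE is the log2 fold change over the root of F. DESeq2 1.42.0 was an alternative, with other scalings and filters, 1 fit over 20 livers, a replicate block and each liver left out. Figures used Python 3.11.15 and matplotlib 3.10.9. Coordinates are from GENCODE on GRCm38. The scripts were tested on simulated data.

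Named genes were the 10 genes of the response, *Cideb* with the overlapping *Nop9*, and the 3 genes nearest to *Fgf21* and to *Gdf15* (mean log2 CPM of at least 0). Of each wider list the 3 called genes with the largest change were also named. These genes, lists and marker lists were chosen with earlier results of these data known. The labels number livers and do not state separate mice, so p-values measure the spread between these samples. No 2 libraries of a group were copies, as the chi-square per gene was 6.95 to 124 over 40 pairs.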

Additional observations from a re-analysis of the deposited data

Results flagged for a closer look

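In 4 of the 40 groups of 5 livers examined, 10 genes in 4 groups, 1 liver lay far from the others by Dixon's ratio, the gap to the nearest liver over the range of the group. For independent and normally distributed values chance would flag about 1 in 20 groups, or 2.0 of 40. The ratios were taken on CPM without a log scale, and the groups reuse the same 20 livers, so this rate is only a rough guide. *Atf3* in KO livers on CDA-HFD had a ratio of 0.862, with KO liver 5 at 26.7 CPM against 5.87 to 8.73 CPM in the others. *Fgf21* in WT livers on CDA-HFD had a ratio of 0.828, with WT liver 5 at 32.1 CPM against 4.89 to 9.58 CPM. The same liver gave a ratio of 0.777 for *Chac1*, at 6.69 CPM against 0.704 to 2.04 CPM. *Asns* in WT livers on WD had a ratio of 0.8, with WT liver 1 at 1.49 CPM against 0.594 to 0.773 CPM.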

How the results depend on the processing

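KO against WT on WD and the change of the KO effect between diets gave 0 of the genes under each alternative. Over all genes these alternatives called between 1 and 162 for KO on WD, and between 35 and 2138 for the change of the KO effect. KO against WT on CDA-HFD gave 1 gene, 2 when scaled by library size alone (*Atf4* beside *Atf3*), and 0 to 1 with a liver left out. Over all 17204 genes 2664 were called in the main fit and 1709 by library size alone. With a liver left out the share was 4.02% to 41.4%. CDA-HFD against WD gave 8 genes in WT livers, beside 51.1% of all genes, and 6 to 9 with a liver left out, beside 44.8% to 50.9%. DESeq2 gave 9 (8815 of all 16726 genes), and so did the fit without a filter (9007 of 34720). With all 20 livers in one fit it gave 7 (8548 of 17804), and with at least 10 counts in every library 6 (7198 of 14236). Library size alone gave 8 (10690 of 16726), of which 6 were shared with the main fit. In KO livers it gave 4 genes (3 to 4 with a liver left out), and 2 with at least 10 counts in every library, where *Asns* and *Psat1* were not tested. Library size alone shifted the median log2 fold change of all genes by -0.19 for KO on CDA-HFD, 0.42 and 0.25 between diets in WT and KO livers, and -0.17 for the change of the KO effect.

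Signs of the 10 genes turned only for values that had not passed. On WD, *Sesn2* (0.00336) was -0.0032 with RLE size factors, -0.0081 by library size alone, -0.00313 with DESeq2, -0.00407 without a filter, -0.000736 with at least 10 counts in every library, and -0.116 to 0.0862 with a liver left out. There *Psat1* lay between -0.44 and 0.12 and *Chac1* between -0.31 and 0.15 with a liver left out. *Chac1* on CDA-HFD was between -0.87 and 0.35 with a liver left out, and 0.00269 without livers 5 of both vectors, a setting chosen after seeing the data. Between diets in KO livers *Ddit3* was 0.15 and *Trib3* 0.15 by library size alone, and *Trib3* lay between -0.37 and 0.0468 with a liver left out. For the change of the KO effect, *Gdf15* was -0.025 by library size alone, *Fgf21* was 0.98 without livers 5 of both vectors, *Fgf21* lay between -0.70 and 0.80 and *Gdf15* between -0.11 and 0.55 with a liver left out. By library size alone 5 wider genes that had passed in WT livers turned: *Ppp1r15b* 0.00635, *Eif2b1* 0.0846, *Aars* 0.103, *Pdia4* 0.21, which passed in the new direction (adjusted p = 0.0145 from edgeR), and *Hspe1* 0.0727. Of the 16 wider genes named for KO against WT on CDA-HFD, 9 passed by library size alone. The causes were not tested.

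Livers with the same number gave correlations of -0.367 to 0.349 over 4 comparisons. Only those numbered 4 had a positive value in each, at 0.284, 0.347, 0.212 and 0.349. Liver 4 was also the lowest of its group for *Atf3* and *Psat1* in all 4 groups. With a replicate block, KO against WT gave 0 genes on WD and 1 on CDA-HFD, and the diets 8 genes in WT and 3 in KO livers, where *Atf3* was lost (adjusted p = 0.0683 from edgeR). Over all genes the block called 2, 2459, 8343 and 2044 in the same order. Of the 19 wider genes named between diets in KO livers, 12 passed with the block. In that block the change of the KO effect for *Fgf21* was 0.10. Of 1886 alternative values of single genes, 1626 kept direction and side of the threshold, 214 were no longer past it, 9 came past it and 37 turned. Depth limits *Asns*, *Psat1*, *Fgf21*, *Slc7a11*, *Stc2*, *Aldh1l2*, *Nupr1*, *Pycr1*, *Mthfd2* and *Tnfrsf10b* on WD, each with 10 or fewer reads in some livers.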
